A study of Drosophila melanogaster with 18 samples.

Results

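Drosophila BG3 cells, a line derived from the larval central nervous system, were depleted of BEAF-32 and Dref together or of BEAF-32 alone, and the 2 knockdowns were compared by RNA-seq to ask what Dref depletion adds when BEAF-32 is already depleted. The comparison rests on 6 of the 12 RNA-seq libraries, out of 18 samples of the series. They are BEAF-32 RNAi Dref RNAi replicates 1 to 3 and BEAF-32 RNAi replicates 1 to 3, chosen by their labels alone. Unperturbed cells do not enter. Cells of both groups had received dsRNA against BEAF-32, made from PCR products and transfected at 50 µg with Fugene, and were harvested after 72 hours. The sources used here do not say how that amount was divided between dsRNAs, nor whether the single knockdown carried a filler dsRNA. They do not say that the replicates were separate cultures either, and the p-values then cover only the variation among these libraries, which may be technical.

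BEAF-32 is an insulator protein that binds CGATA motifs near promoters and lies at many borders of topologically associating domains. Dref binds the DNA replication-related element (DRE, TATCGATA), which contains the BEAF-32 motif, so the proteins can occupy overlapping sites. It is known in flies as an activator of genes for DNA replication and cell proliferation, and acts with the TBP-related factor TRF2 at promoters of housekeeping genes, ribosomal protein genes among them.

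The Dref dsRNA was made between the primer pair below, shown because it defines the depleted transcript. The capitals are the gene-specific part of each primer, without the added phage promoter. On chromosome 2L of the Release 6 genome (RefSeq, dm6) each primer matches once, at chr2L:9964532-9964842, which gives a product of 311 bases within the last annotated exon of Dref (chr2L:9964147-9967229, minus strand).
Dref forward primer: CGAGATACCAAATCCTCCGA
Dref reverse primer: TCGCCAGTGCAGACTAATTG

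Among promoters of genes known as Dref targets, 7 are printed as 80 bases that end 1 base before the annotated gene start, on the gene's own strand in the RefSeq dm6 genome, with each DRE in capitals. DNApol-alpha180 and wts have further DREs outside the printed bases. They are shown because they carry the sequence that Dref is known to bind and are referred to again beside the values of their genes.
DNApol-alpha180 (chr3R:21671751-21671830, minus strand): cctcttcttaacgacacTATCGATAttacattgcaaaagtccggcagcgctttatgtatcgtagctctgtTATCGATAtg
DNApol-alpha73 (chr3R:27239083-27239162, plus strand): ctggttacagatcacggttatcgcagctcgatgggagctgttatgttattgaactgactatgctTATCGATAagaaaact
CycA (chr3L:11833579-11833658, minus strand): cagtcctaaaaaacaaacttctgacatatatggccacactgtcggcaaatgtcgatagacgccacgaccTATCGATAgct
osa (chr3R:17718351-17718430, minus strand): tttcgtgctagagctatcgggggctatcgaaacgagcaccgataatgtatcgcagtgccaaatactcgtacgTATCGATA
wts (chr3R:30806620-30806699, minus strand): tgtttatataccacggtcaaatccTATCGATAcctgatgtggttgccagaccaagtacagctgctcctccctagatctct
p53 (chr3R:23054083-23054162, minus strand): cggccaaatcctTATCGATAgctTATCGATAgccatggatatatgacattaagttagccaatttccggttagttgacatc
Gnf1 (chr3R:4906542-4906621, plus strand): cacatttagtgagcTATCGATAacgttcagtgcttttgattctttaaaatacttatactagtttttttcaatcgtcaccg

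One library stood apart and went against its label. Totals over genes ranged from 7178403 to 10001747 counts in the 6 libraries. Reads without a unique alignment made up 25.8, 24.6 and 25.6% of counted reads in BEAF-32 RNAi Dref RNAi, and 21.0 and 21.9% in BEAF-32 RNAi replicates 1 and 2. This share thus differed between the groups even without replicate 3, and its part in the results with replicates 1 and 2 was not tested. The highest share, 29.5%, was in the library labelled BEAF-32 RNAi replicate 3. Across genes, log2 CPM values (CPM, each count over the library total, scaled by the trimmed mean of M values, TMM) correlated at 0.995 between all pairs of libraries of 1 group that leave this library out, and at 0.900 between it and each of BEAF-32 RNAi replicates 1 and 2. These values describe the libraries, since genes are not independent replicates. Pairs of libraries from different groups correlated at 0.954 to 0.955, whether or not they involved it. Genes at least 2-fold apart numbered 990 to 998 between it and its 2 fellow replicates, 339 to 365 between libraries of different groups, and 0 to 4 within the remaining pairs of 1 group. It also had the lowest Dref and the highest BEAF-32 RNA of the 6, against its label. The part of its depth and alignment in these differences was not tested. The main counts are therefore given with all 3 BEAF-32 RNAi libraries and with replicates 1 and 2 only. Both changes are given for part of the named genes. Where a gene has 1 change and no choice of libraries is stated, it is that with replicates 1 and 2. BG3 cells expressed part of the marker lists of the larval brain. elav, which marks neurons, had 110.2, 104 and 109 CPM in BEAF-32 RNAi Dref RNAi cells, against 73.5, 84.2 and 112 CPM in BEAF-32 RNAi cells. repo, which marks glia, had 77.4, 74.7 and 77.3 CPM in BEAF-32 RNAi Dref RNAi cells, against 30.1, 38.4 and 88.9 CPM in BEAF-32 RNAi cells. In RNA of bulk cells, a change in the number of such cells and a change of RNA per cell cannot be told apart. The neuroblast markers dpn and ase were below 1.5 CPM in every library, as were the synaptic genes nSyb and brp.

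Dref RNA was slightly lower where Dref was targeted than in BEAF-32 RNAi replicates 1 and 2, and BEAF-32 RNA was higher. Dref had 129, 134 and 129 CPM in BEAF-32 RNAi Dref RNAi cells, against 144, 148 and 85.7 CPM in BEAF-32 RNAi cells. The double-knockdown libraries lay below replicates 1 and 2 and above the library labelled BEAF-32 RNAi replicate 3. With replicates 1 and 2 only, Dref had a log2 fold change of −0.16 ± 0.06 (SE, n = 3 and 2, adjusted p = 0.023, edgeR quasi-likelihood F test with Benjamini-Hochberg adjustment). With all 3 libraries the estimate was 0.06 ± 0.20 (SE, n = 3 each, adjusted p = 0.94, edgeR), of the opposite sign. BEAF-32, targeted in both groups, had 59.7, 55.2 and 51.4 CPM in BEAF-32 RNAi Dref RNAi cells, against 40.9, 45.1 and 75.2 CPM in BEAF-32 RNAi cells. Its log2 fold change was 0.37 ± 0.09 with replicates 1 and 2 (SE, adjusted p = 0.00083, edgeR) and 0.05 ± 0.24 with all 3 (SE, adjusted p = 0.95, edgeR). In RNA counted over the whole gene, depletion of Dref in the double knockdown relative to BEAF-32 RNAi was thus small with replicates 1 and 2 and not detectable with all 3. The study also describes its own check of the depletion in RNA and protein, which was not analysed here.

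The partners of BEAF-32 at domain borders were lower too against replicates 1 and 2. Chro, a chromodomain protein, had 165, 170.1 and 161 CPM in BEAF-32 RNAi Dref RNAi cells, against 223, 224 and 101 CPM in BEAF-32 RNAi cells. It fell by 0.44 ± 0.05 on the log2 scale (SE, adjusted p = 2.5e-10, edgeR) with replicates 1 and 2, against −0.14 ± 0.29 (SE, adjusted p = 0.87) with all 3. Cp190, a zinc finger protein recruited by several insulator proteins, had 275, 297 and 311 CPM in BEAF-32 RNAi Dref RNAi cells, against 328, 333 and 233 CPM in BEAF-32 RNAi cells. Its change with replicates 1 and 2 was −0.17 ± 0.05 (SE, adjusted p = 0.0035, edgeR). For both, the double knockdown lay between BEAF-32 RNAi replicates 1 and 2 above it and the library labelled BEAF-32 RNAi replicate 3 below it.

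**Figure D1:**
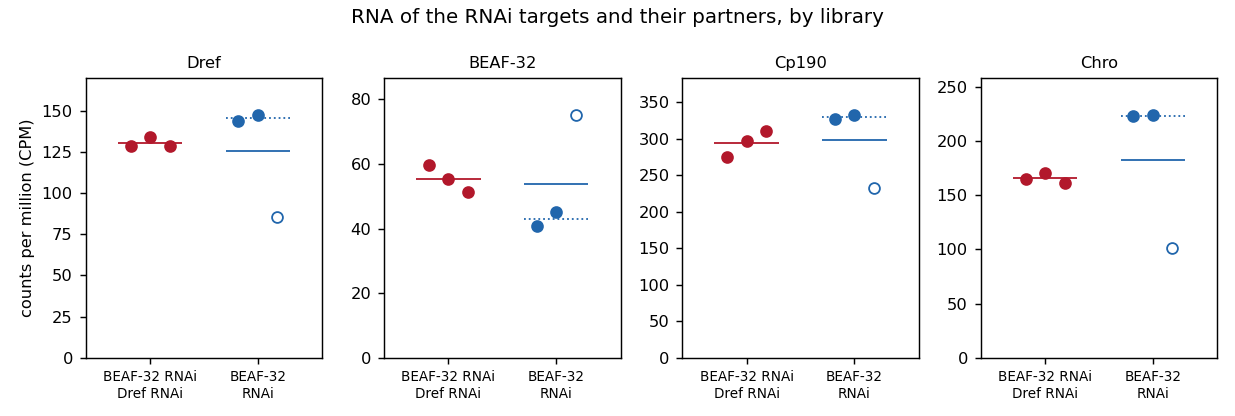
RNA of Dref, BEAF-32, Cp190 and Chro in CPM (y axis) for each library of BEAF-32 RNAi Dref RNAi (red, left) and BEAF-32 RNAi (blue, right). The open circle is the library labelled BEAF-32 RNAi replicate 3, solid lines are group means and the dotted line is the mean of BEAF-32 RNAi replicates 1 and 2. For each of the 4 genes the open circle lies on the far side of the red points from the filled blue points.

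How many genes changed depended on that library. With all 3 BEAF-32 RNAi libraries, 4 of 9980 genes (0.0401%) passed an adjusted p of 0.05, 2 higher and 2 lower, while 1362 had an unadjusted p under 0.05. With replicates 1 and 2 only, 4494 of 9710 genes passed (46.3%), 2284 higher (23.5%) and 2210 lower (22.8%). Of all genes tested, 669 rose (6.89%) and 303 fell (3.12%) at least 2-fold, and 256 rose (2.64%) and 131 fell (1.35%) at least 4-fold, together 387 (3.99%).

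Genes that separated the groups in all 6 libraries were far more numerous than the 4 calls. Every BEAF-32 RNAi Dref RNAi library lay above all 3 BEAF-32 RNAi libraries for 1180 genes (11.8%) and below all 3 for 1075 genes (10.8%), together 22.6%. For 1 gene with 3 against 3 libraries, non-overlap in either direction has an exact permutation p of 0.1. Part of these genes would therefore be placed so by order alone, and which ones cannot be told from this count. For the 2284 genes called higher with replicates 1 and 2, the library labelled BEAF-32 RNAi replicate 3 lay above the whole BEAF-32 RNAi Dref RNAi range for 1080 (47.3%), within it for 345 (15.1%) and below it for 859 (37.6%). Among the 2210 genes called lower it lay below the whole range for 1117 (50.5%), within it for 377 (17.1%) and above it for 716 (32.4%). So for most calls made with replicates 1 and 2, that library was level with the double knockdown or further from replicates 1 and 2 than the double knockdown was. The median log2 fold change of the genes called higher was 0.58 with replicates 1 and 2 and 0.29 with all 3, and of those called lower −0.42 and −0.29.

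**Figure D2:**
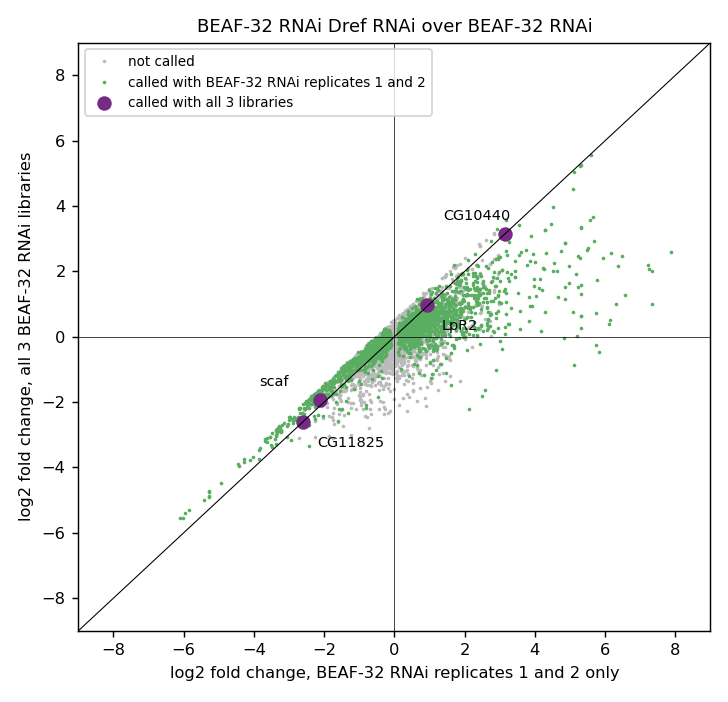
Each point is 1 gene, with its log2 fold change (BEAF-32 RNAi Dref RNAi over BEAF-32 RNAi) from BEAF-32 RNAi replicates 1 and 2 only on the x axis and from all 3 BEAF-32 RNAi libraries on the y axis. Green points are the 4494 genes called with replicates 1 and 2, large purple points the 4 called with all 3, which lie near the diagonal line of equal values, while many green points on the right lie below it.

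The 4 genes called with all 3 libraries had similar changes under both choices. CG10440 (current symbol twz, chr2R:21560246-21576035) had 79.3, 75.1 and 68.7 CPM in BEAF-32 RNAi Dref RNAi cells, against 8.47, 8.23 and 8.57 CPM in BEAF-32 RNAi cells. It rose by 3.14 ± 0.11 on the log2 scale with all 3 libraries (SE, n = 3 each, adjusted p = 0.00034, edgeR) and by 3.15 ± 0.12 with replicates 1 and 2 (SE, adjusted p = 2.6e-31, edgeR). The 3 BEAF-32 RNAi libraries were almost level. LpR2 (chr3R:25698727-25740465), a lipophorin receptor that takes up lipids, had 386, 391 and 382 CPM in BEAF-32 RNAi Dref RNAi cells, against 198, 205 and 187 CPM in BEAF-32 RNAi cells. Its log2 fold change was 0.97 ± 0.08 with all 3 (SE, adjusted p = 0.04, edgeR) and 0.94 ± 0.05 with replicates 1 and 2 (SE, adjusted p = 3.7e-25, edgeR). CG11825 (chr2R:10420414-10423650) had 4.88, 6.09 and 7.28 CPM in BEAF-32 RNAi Dref RNAi cells, against 38.03, 35.4 and 36.9 CPM in BEAF-32 RNAi cells. Its log2 fold change was −2.60 ± 0.18 with all 3 (SE, adjusted p = 0.013, edgeR) and −2.60 ± 0.15 with replicates 1 and 2 (SE, adjusted p = 2.4e-22, edgeR). For scaf (chr2R:5676750-5691723), a secreted protease homologue that lacks catalytic activity, the values were 23.3, 21.8 and 20.6 CPM in BEAF-32 RNAi Dref RNAi cells, against 91.95, 96.5 and 63.03 CPM in BEAF-32 RNAi cells. The changes were −1.94 ± 0.18 with all 3 (SE, adjusted p = 0.045, edgeR) and −2.11 ± 0.09 with replicates 1 and 2 (SE, adjusted p = 1.4e-28, edgeR). None of the 4 has a DRE in the window from 250 bases before to 50 bases after its annotated start. CG10440 stayed called when any 1 library was left out. With BEAF-32 RNAi replicate 1 or 2, or any BEAF-32 RNAi Dref RNAi library, left out of the full set, the other 3 did not.

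**Figure D3:**
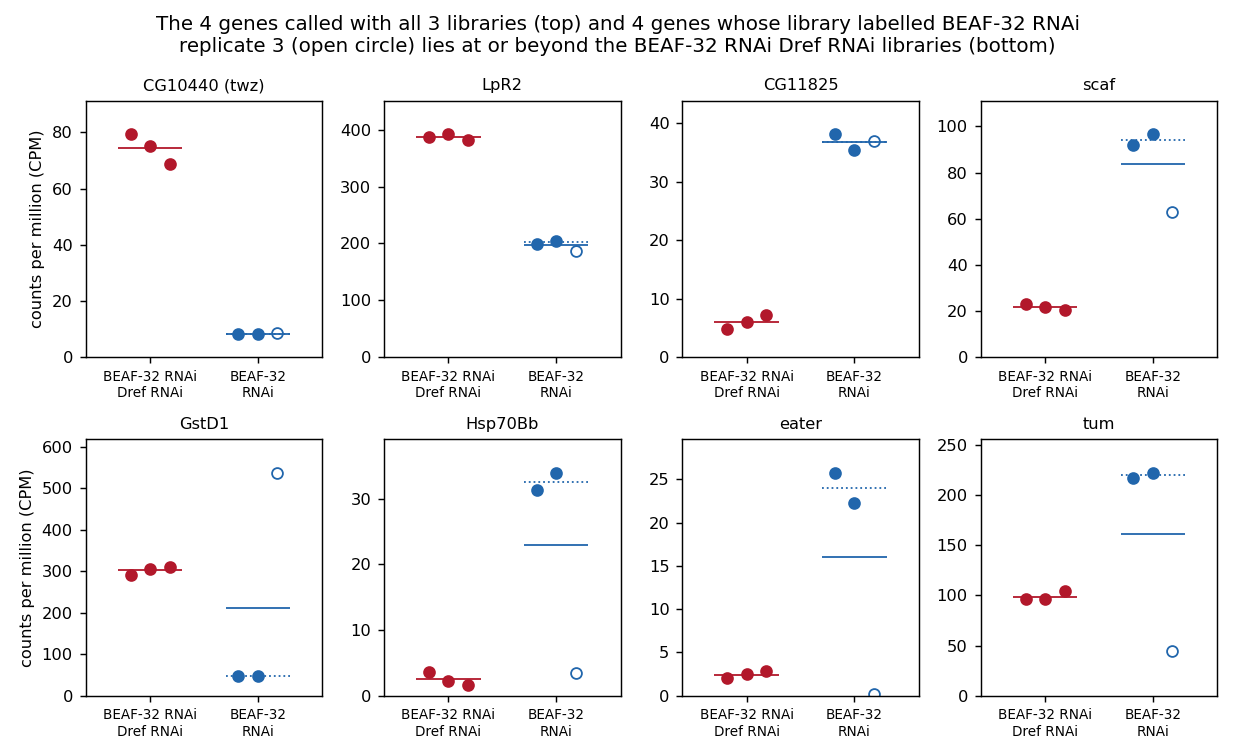
CPM (y axis) by library for the 4 genes called with all 3 BEAF-32 RNAi libraries (top row) and for GstD1, Hsp70Bb, eater and tum (bottom row), in BEAF-32 RNAi Dref RNAi (red, left) and BEAF-32 RNAi (blue, right). Solid lines are group means, dotted lines the mean of BEAF-32 RNAi replicates 1 and 2, and the open circle, the library labelled BEAF-32 RNAi replicate 3, lies on the side of the filled blue points in the top row and level with or beyond the red points in the bottom row.

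A wider set had changes of at least 2-fold under both choices and no overlap among the 6 libraries. Of 9710 genes tested with replicates 1 and 2, 972 (10%) were called at least 2-fold there. The wider set held 143 of the 9710 genes as higher and 75 as lower. Its genes were called with replicates 1 and 2 and had at least 10 counts in every library of the higher group. This set was formed after values were seen, and the genes named here are those with the smallest p with all 3 libraries. Among those higher, Orct2, an organic cation transporter, had 463, 462 and 453 CPM in BEAF-32 RNAi Dref RNAi cells, against 129, 128 and 200.1 CPM in BEAF-32 RNAi cells. Orct, of the same transporter family, had 145, 135 and 142 CPM in BEAF-32 RNAi Dref RNAi cells, against 65.05, 58.00 and 45.3 CPM in BEAF-32 RNAi cells. Both had an adjusted p of 0.068 with all 3 libraries (edgeR), and changes with replicates 1 and 2 of 1.84 ± 0.05 and 1.19 ± 0.07 (log2, SE). The sodium-driven anion exchanger Ndae1 had 30.4, 27.1 and 26.8 CPM in BEAF-32 RNAi Dref RNAi cells, against 12.2, 10.1 and 13.4 CPM in BEAF-32 RNAi cells. CG1673 (current symbol Bcat), a branched-chain amino acid aminotransferase, had 349, 343 and 344 CPM in BEAF-32 RNAi Dref RNAi cells, against 90.5, 99.7 and 146 CPM in BEAF-32 RNAi cells. Its change with replicates 1 and 2 was 1.86 ± 0.06 (log2, SE). nkd, an antagonist of Wnt signalling, had 392, 444 and 434 CPM in BEAF-32 RNAi Dref RNAi cells, against 167, 165 and 226 CPM in BEAF-32 RNAi cells. axo, CG43163, Esp and CG15630 (current symbol fipi) were higher as well, with log2 fold changes with all 3 libraries of 1.67, 2.34, 2.06 and 4.53. As the set required, the 3 BEAF-32 RNAi libraries were below the lowest BEAF-32 RNAi Dref RNAi library in each of these genes.

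Among the genes lower in this set, Prx2540-2, a peroxiredoxin that removes peroxides, had 24.7, 22.6 and 27.4 CPM in BEAF-32 RNAi Dref RNAi cells, against 130.2, 118 and 62.02 CPM in BEAF-32 RNAi cells. Its near-identical copy Prx2540-1 had 5.28, 3.36 and 4.26 CPM in BEAF-32 RNAi Dref RNAi cells, against 24.4, 17.2 and 15.4 CPM in BEAF-32 RNAi cells, and reads may be split between such copies. The change of Prx2540-2 with replicates 1 and 2 was −2.31 ± 0.09 (log2, SE) and with all 3 −2.05 ± 0.28 (adjusted p = 0.075, edgeR). Drep-1, an inhibitor of the nuclease that cuts DNA in dying cells, had 7.52, 6.21 and 7.504 CPM in BEAF-32 RNAi Dref RNAi cells, against 25.4, 23.9 and 17.6 CPM in BEAF-32 RNAi cells. The phosphate transporter CG42575 (current symbol NaPi-III) had 5.59, 6.71 and 7.504 CPM in BEAF-32 RNAi Dref RNAi cells, against 21.1, 17.8 and 23.7 CPM in BEAF-32 RNAi cells. Kah, a zinc finger protein of the Snail family, had 5.38, 4.85 and 3.92 CPM in BEAF-32 RNAi Dref RNAi cells, against 12.4, 12.4 and 16.9 CPM in BEAF-32 RNAi cells. CG14692, CG17264 and CG5118 were lower with log2 fold changes with all 3 libraries of −1.82, −1.03 and −1.15.

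Genes known as Dref targets changed in both directions. Of 18 listed, DNApol-gamma35 had no count in any library and 17 were tested. In the fit with replicates 1 and 2, 3 of them (17.6%) were higher and 6 (35.3%) lower, where 23.5% and 22.8% of all genes were, with a median log2 fold change of −0.12, beside −0.01 over all genes tested. With all 3 libraries none passed and the median was 0.00, beside −0.03. PCNA, the sliding clamp of DNA replication and the gene in which the DRE was described, had 252, 255 and 257 CPM in BEAF-32 RNAi Dref RNAi cells, against 213, 216 and 206 CPM in BEAF-32 RNAi cells. It was higher in every double-knockdown library, by 0.25 ± 0.05 with replicates 1 and 2 (log2, SE, adjusted p = 3.6e-05, edgeR) and 0.27 ± 0.08 with all 3 (adjusted p = 0.26). The subunits of DNA polymerase alpha, whose promoters are printed above, were lower in part. DNApol-alpha180 had 91.9, 100.2 and 96.7 CPM in BEAF-32 RNAi Dref RNAi cells, against 109.5, 99.5 and 33.7 CPM in BEAF-32 RNAi cells, with a change of −0.12 ± 0.07 with replicates 1 and 2 (SE, adjusted p = 0.15, edgeR). DNApol-alpha73 had 34.3, 34.3 and 36.4 CPM in BEAF-32 RNAi Dref RNAi cells, against 45.9, 43.3 and 7.86 CPM in BEAF-32 RNAi cells, with a change of −0.35 ± 0.10 (SE, adjusted p = 0.0034, edgeR). The changes with all 3 libraries were 0.25 for DNApol-alpha180 and 0.11 for DNApol-alpha73, of the opposite sign. In both, the library labelled BEAF-32 RNAi replicate 3 was the lowest of the 6 by a wide margin.

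Other targets with a DRE moved in either direction. CycA, the mitotic cyclin A, had 181, 189 and 185 CPM in BEAF-32 RNAi Dref RNAi cells, against 250.1, 262 and 109 CPM in BEAF-32 RNAi cells, a change of −0.47 ± 0.05 with replicates 1 and 2 (log2, SE, adjusted p = 8.3e-12, edgeR). Gnf1, the large subunit of the clamp loader, had 135, 122 and 132 CPM in BEAF-32 RNAi Dref RNAi cells, against 178, 179 and 83.5 CPM in BEAF-32 RNAi cells, a change of −0.46 ± 0.06 (SE, adjusted p = 7.6e-10, edgeR). For wts, the kinase of the Hippo pathway, the values were 146, 156 and 151 CPM in BEAF-32 RNAi Dref RNAi cells, against 104, 111 and 171 CPM in BEAF-32 RNAi cells, a rise of 0.49 ± 0.06 (SE, adjusted p = 8.1e-10, edgeR). In these 3 genes the library labelled BEAF-32 RNAi replicate 3 lay past the double knockdown, away from replicates 1 and 2. osa, a subunit of the Brahma remodelling complex, had 468, 473 and 486 CPM in BEAF-32 RNAi Dref RNAi cells, against 435, 447 and 370.3 CPM in BEAF-32 RNAi cells, a rise of 0.11 ± 0.04 (SE, adjusted p = 0.038, edgeR), with no overlap among the 6 libraries. The tumour suppressor gene p53 had 109.5, 112 and 107 CPM in BEAF-32 RNAi Dref RNAi cells, against 105, 100.4 and 252 CPM in BEAF-32 RNAi cells, and its 0.09 did not pass (adjusted p = 0.29, edgeR). Of the targets without a perfect DRE in the window, brm, the Brahma ATPase, had a change of −0.22 ± 0.05 and E2f, the cell cycle activator, of −0.17 ± 0.05 (SE), both past the threshold with replicates 1 and 2. Those changes were −0.04 and 0.02 with all 3 libraries. The change of mor, another Brahma subunit with 1 DRE, was −0.14 ± 0.05 with replicates 1 and 2, past the threshold (adjusted p = 0.012, edgeR). It was 0.08 with all 3 libraries. The changes of phl (−0.12), Tbp (0.08), mtSSB (0.17), TFAM (−0.04), bsk (−0.13) and skpA (−0.09) did not pass. Of these, only Tbp and skpA have a DRE in the window, 1 each.

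Across the genome, a smaller share of genes with a DRE than of genes without one changed at least 2-fold, and the medians of both were near 0. The search was for TATCGATA, which is its own reverse complement and so reads alike on both strands, in the window from 250 bases before to 50 after the start. The motif was in 12.3% of the windows of genes tested (1219 of 9918) and in 7.97% of the windows of all genes in the count files. The median log2 fold change of genes with a DRE was −0.01 with all 3 libraries, beside −0.03 for genes without, and −0.03 with replicates 1 and 2, beside 0.00. In the fit with replicates 1 and 2, 22.2% of genes with a DRE were higher and 28.2% lower, beside 23.7% and 22% of genes without. Changes of at least 2-fold were rarer with a DRE, 33 genes higher and 8 lower of 1214, beside 630 and 291 of 8435. Genes with a DRE also had more RNA, with a median of 63.5 CPM in BEAF-32 RNAi Dref RNAi, beside 26.9 CPM. Among genes with a mean of at least 10 CPM, 30% with a DRE were lower and 22.3% higher, beside 27.4% and 27.8% without. At that level 1.54% with a DRE rose and 0.452% fell at least 2-fold, beside 4.52% and 0.923%. The differences between these shares were not tested. The non-overlap count was near the background, at 12.7% above and 12.1% below all BEAF-32 RNAi libraries for genes with a DRE, beside 11.8% and 10.8% over all genes. Windows with 3 or more CGATA (counted on either strand, and contained in each DRE on both) gave similar shares, with 21.8% higher and 27.5% lower of 1616 genes.

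**Figure D4:**
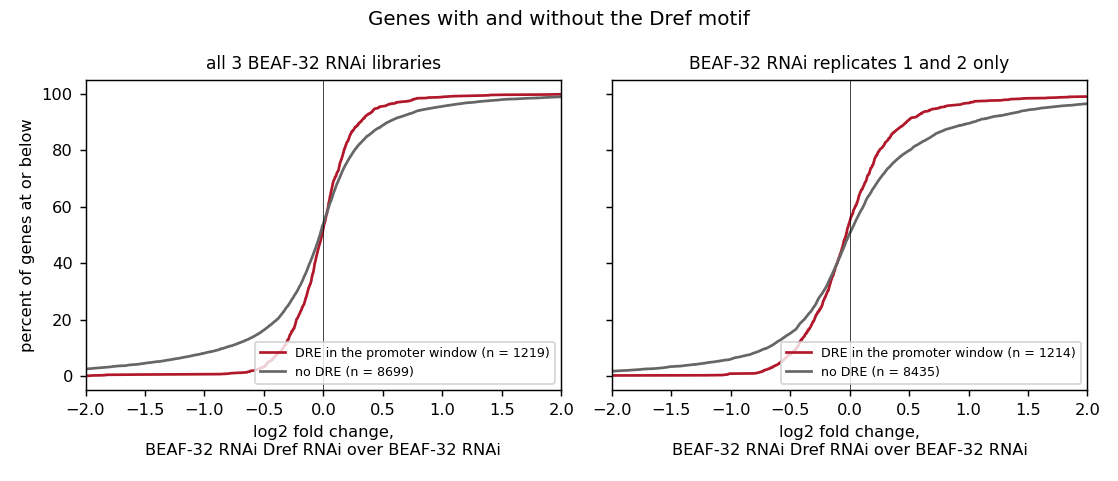
Cumulative percent of genes (y axis) at or below a log2 fold change (x axis, shown from −2 to 2, BEAF-32 RNAi Dref RNAi over BEAF-32 RNAi) for genes with a DRE in the promoter window (red) and without (grey), with all 3 BEAF-32 RNAi libraries (left) and with replicates 1 and 2 (right). The red curves are steeper than the grey ones in both panels, and all curves cross 0 near the middle.

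Cell cycle and mitosis genes were mostly lower with replicates 1 and 2, but almost none of them lay below all 3 BEAF-32 RNAi libraries. Of the 35 cell cycle and mitosis genes tested, 24 fell and 1 rose with replicates 1 and 2, where 22.8% and 23.5% of all genes did, with a median of −0.47. Only 1 (2.86%) lay below all 3 libraries and 4 (11.4%) above, where 10.8% and 11.8% of all genes did. Their summed level was 4324, 4333 and 4366 CPM in BEAF-32 RNAi Dref RNAi, against 5746 and 5819 CPM in BEAF-32 RNAi replicates 1 and 2 and 2850.0 CPM in the library labelled BEAF-32 RNAi replicate 3. The double knockdown was between the 2 kinds of BEAF-32 RNAi library. tum, a component of the centralspindlin complex in cytokinesis, had 96.3, 95.9 and 104 CPM in BEAF-32 RNAi Dref RNAi cells, against 217, 222 and 44.7 CPM in BEAF-32 RNAi cells, a change of −1.15 ± 0.06 with replicates 1 and 2 (log2, SE, adjusted p = 8.5e-26, edgeR) and −0.71 ± 0.53 with all 3 (adjusted p = 0.61). The mitotic kinase gene polo had 189.9, 178 and 189.9 CPM in BEAF-32 RNAi Dref RNAi cells, against 353, 337 and 111 CPM in BEAF-32 RNAi cells and fell by 0.89 ± 0.05 (SE, adjusted p = 1.5e-23, edgeR). Klp61F, the kinesin that separates spindle poles, had 306, 309 and 318 CPM in BEAF-32 RNAi Dref RNAi cells, against 507, 504 and 156 CPM in BEAF-32 RNAi cells and fell by 0.70 ± 0.04 (SE, adjusted p = 5.5e-21, edgeR). The exception was stg, the Cdc25 phosphatase that triggers mitosis, with 396, 408 and 409.7 CPM in BEAF-32 RNAi Dref RNAi cells, against 281, 294 and 89.04 CPM in BEAF-32 RNAi cells. It rose by 0.49 ± 0.05 (SE, adjusted p = 5.9e-14, edgeR), above all 3 BEAF-32 RNAi libraries.

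Among 38 DNA replication genes, 17 were lower and 6 higher with replicates 1 and 2, where 22.8% and 23.5% of all genes were, with a median of −0.15 (0.02 with all 3). The lower ones with the smallest p were Ts, thymidylate synthase (−0.47 ± 0.07), chif, the activator of the Cdc7 kinase (−0.40 ± 0.06), and Mcm6 of the replicative helicase (−0.37 ± 0.06, all log2, SE). Those changes were −0.04, −0.25 and −0.02 with all 3 libraries. Higher ones included PCNA and the subunits of ribonucleotide reductase, the enzyme that makes deoxynucleotides. RnrS had 281, 273 and 263 CPM in BEAF-32 RNAi Dref RNAi cells, against 225, 229 and 149 CPM in BEAF-32 RNAi cells, with a change of 0.26 ± 0.05 (SE, adjusted p = 1.2e-05, edgeR) and no overlap. RnrL had 445, 449 and 426 CPM in BEAF-32 RNAi Dref RNAi cells, against 387, 363 and 510.1 CPM in BEAF-32 RNAi cells, with a change of 0.23 ± 0.05 (SE), and the library labelled BEAF-32 RNAi replicate 3 above the double knockdown. Histone chaperone and centromere genes counted 9 lower and 0 higher of 12, against the same shares of all genes, with CG7911 (current symbol Nph, −0.60 ± 0.06), Cenp-C (−0.63 ± 0.07) and Nlp (−0.41 ± 0.05, SE) leading. Of these, CG7911, a nucleoplasmin family gene, lay below all 3 BEAF-32 RNAi libraries, with 104, 101 and 105 CPM in BEAF-32 RNAi Dref RNAi cells, against 159, 155 and 133 CPM in BEAF-32 RNAi cells.

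Genes for proteins that act with Dref and for chromatin remodelling subunits were more often lower than higher with replicates 1 and 2. Of 11 partners of Dref and TRF2 and remodelers, 7 were lower and 0 higher with replicates 1 and 2, where 22.8% and 23.5% of all genes were, median −0.30. pzg, a partner of Dref and of the NURF remodeler, had 211, 207 and 212 CPM in BEAF-32 RNAi Dref RNAi cells, against 295, 289 and 150.1 CPM in BEAF-32 RNAi cells, a change of −0.48 ± 0.05 (SE, adjusted p = 1.5e-12, edgeR). Nurf-38 was lower (−0.44 ± 0.05), and so was Acf1, of the ACF remodeler (−0.40 ± 0.05, SE). Those changes were −0.23 and −0.09 with all 3 libraries. SWI/SNF and Trithorax genes counted 11 lower and 2 higher of 16, median −0.22, led by dalao (−0.77 ± 0.06), Snr1 (−0.54 ± 0.07) and Bap170 (−0.46 ± 0.06), with trx, the Trithorax methyltransferase, higher (0.50 ± 0.05, SE). The changes of these named genes were −0.45, −0.30, −0.24 and 0.17 with all 3 libraries. With all 3 libraries no member of either list passed, and no member of either lay below every BEAF-32 RNAi library, where 10.8% of all genes did. Insulator proteins and cofactors counted 6 lower and 2 higher of 14, with Ibf1 (−0.74 ± 0.13), pita (−0.54 ± 0.07) and Top2 (−0.32 ± 0.04, SE) lower. Those changes were −0.50, −0.27 and −0.05 with all 3 libraries. With all 3 libraries none of the 14 passed, the median was −0.06, and 0 lay above or below every BEAF-32 RNAi library. The library labelled BEAF-32 RNAi replicate 3 lay below the double knockdown for the 6 lower genes and above it for the 2 higher ones.

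Cytoplasmic ribosomal protein genes were lower in sum against each of the 3 BEAF-32 RNAi libraries. Of 83 tested, 51 (61.4%) lay below all 3 BEAF-32 RNAi libraries, where 10.8% of all genes did, and 0 lay above all 3. With replicates 1 and 2, 47 fell and 6 rose, where 22.8% and 23.5% of all genes did, and the median log2 fold change was −0.12, against −0.24 with all 3. Their summed level was 79825, 83378 and 79823 CPM in BEAF-32 RNAi Dref RNAi, against 91285 and 91385 CPM in BEAF-32 RNAi replicates 1 and 2 and 108558 CPM in the library labelled BEAF-32 RNAi replicate 3. RpL22 had 505, 487 and 503 CPM in BEAF-32 RNAi Dref RNAi cells, against 699, 739 and 797 CPM in BEAF-32 RNAi cells, a change of −0.53 ± 0.04 with replicates 1 and 2 (SE, adjusted p = 1.2e-16, edgeR) and −0.58 ± 0.09 with all 3 (adjusted p = 0.097). RpL3 had 1642, 1601 and 1630.5 CPM in BEAF-32 RNAi Dref RNAi cells, against 2358, 2433 and 2203 CPM in BEAF-32 RNAi cells, a change of −0.56 ± 0.04 (SE, adjusted p = 2.7e-19, edgeR) and −0.52 ± 0.09 (adjusted p = 0.11). RpL8 had 1796, 1759.9 and 1730.5 CPM in BEAF-32 RNAi Dref RNAi cells, against 2604, 2716 and 1429 CPM in BEAF-32 RNAi cells and was a case in which the library labelled BEAF-32 RNAi replicate 3 was the lowest. The members that rose with replicates 1 and 2 were led by RpS27 (0.28 ± 0.05), RpL41 (0.32 ± 0.06) and the minor paralog RpS5b (2.24 ± 0.47, SE). RpS27 and RpL41 turned to −0.07 and −0.10 with all 3. A DRE stood in the window of 30.1% of the ribosomal protein genes, beside 12.3% of all genes tested. The share was 45% for translation factors, 38.7% for proteasome genes, 20.8% for mitochondrial ribosomal proteins and 11.4% for cell cycle and mitosis genes. Of the proteasome genes, 3 of 31 were higher and 6 lower with replicates 1 and 2. The part of the motif in these changes was not tested. With all 3 libraries no ribosomal protein gene passed.

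Translation factors showed the same direction. Of 20 tested, 10 lay below all 3 BEAF-32 RNAi libraries and 0 above, and in the fit with replicates 1 and 2, 16 fell and 3 rose, beside the all-gene shares just given (median −0.26, and −0.21 with all 3). Ef1beta, the exchange factor of elongation factor 1, had 492, 495 and 485 CPM in BEAF-32 RNAi Dref RNAi cells, against 731, 715 and 741 CPM in BEAF-32 RNAi cells, with changes of −0.56 ± 0.04 (SE, adjusted p = 9.7e-18, edgeR) and −0.57 ± 0.08 with all 3 (adjusted p = 0.075). Its partner Ef1gamma had 966, 994 and 1004 CPM in BEAF-32 RNAi Dref RNAi cells, against 1472, 1519.5 and 1062 CPM in BEAF-32 RNAi cells. Int6, a subunit of initiation factor 3, had 217, 223 and 234 CPM in BEAF-32 RNAi Dref RNAi cells, against 313, 315 and 239.5 CPM in BEAF-32 RNAi cells. Some initiation factors went the other way, with eIF-2beta (0.48 ± 0.04), eIF-4B (0.33 ± 0.05) and eIF6 (0.14 ± 0.05, SE) higher with replicates 1 and 2, and eIF-4B and eIF6 at −0.09 and −0.23 with all 3. Mitochondrial ribosomal proteins did not share the fall, with 9 higher and 6 lower of 72, and 4 of them (5.56%) below all 3 libraries, beside 10.8% of all genes.

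Genes of the unfolded protein response, by which cells answer misfolded protein in the endoplasmic reticulum, and of amino acid stress were more often higher than lower with replicates 1 and 2. Of 16 tested, 11 rose and none fell, where 23.5% and 22.8% of all genes did, and 5 did not pass (median 0.57). With all 3 libraries none passed and the median was 0.33, and 8 (50%) lay above every BEAF-32 RNAi library, where 11.8% of all genes did. The summed level was 10053, 10493 and 10518 CPM in BEAF-32 RNAi Dref RNAi, against 5408 and 5442 CPM in BEAF-32 RNAi replicates 1 and 2 and 10396 CPM in the library labelled BEAF-32 RNAi replicate 3, so the last of these was within the double-knockdown range. Gp93, the chaperone GRP94 of the endoplasmic reticulum, had 1492, 1584 and 1599.5 CPM in BEAF-32 RNAi Dref RNAi cells, against 472, 489 and 1356 CPM in BEAF-32 RNAi cells, a rise of 1.70 ± 0.04 (SE, adjusted p = 5.8e-40, edgeR) and 1.01 ± 0.42 with all 3 (adjusted p = 0.36). Hsc70-3, the chaperone BiP, had 2139, 2308 and 2323 CPM in BEAF-32 RNAi Dref RNAi cells, against 686, 672 and 2569 CPM in BEAF-32 RNAi cells, a rise of 1.73 ± 0.04 (SE, adjusted p = 1.6e-40, edgeR). CG10420 (current symbol Sil1), a nucleotide exchange factor of BiP, had 328, 337 and 335 CPM in BEAF-32 RNAi Dref RNAi cells, against 59.9, 59.6 and 429.9 CPM in BEAF-32 RNAi cells and rose by 2.48 ± 0.06 (SE, adjusted p = 7.3e-42, edgeR). For the last 2 genes the library labelled BEAF-32 RNAi replicate 3 was above the double knockdown. The other members above all 3 libraries were Ire1, Pdi, crc, Thor, Sesn, chrb and Hsc70Cb, with log2 fold changes with all 3 between 0.10 (Hsc70Cb) and 1.29 (Thor, a translation inhibitor).

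**Figure D5:**
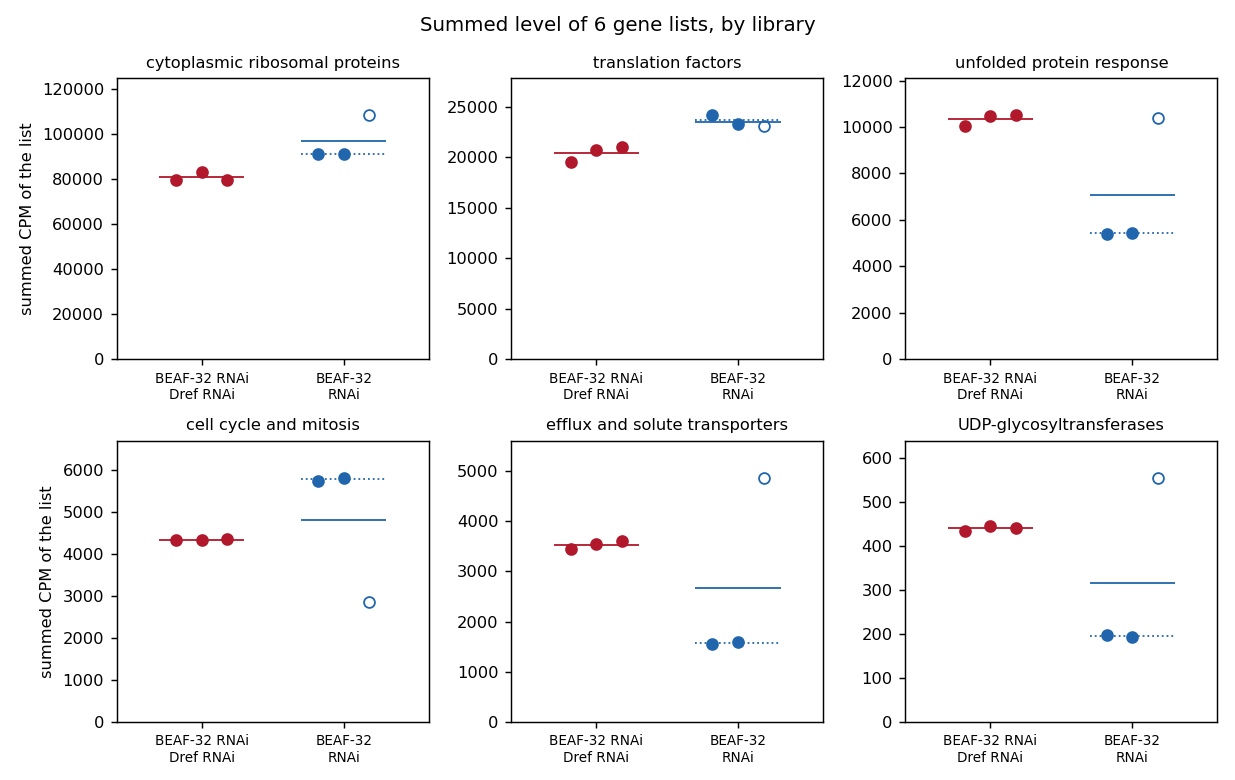
Summed CPM of the members of 6 gene lists (y axis, from 0) for each library of BEAF-32 RNAi Dref RNAi (red, left) and BEAF-32 RNAi (blue, right). Solid lines are group means and dotted lines the mean of BEAF-32 RNAi replicates 1 and 2. In ribosomal proteins and translation factors all red points lie below all blue ones, and in the remaining 4 lists the open circle, the library labelled BEAF-32 RNAi replicate 3, lies level with the red points or beyond them.

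Heat shock and chaperone genes were more often lower than higher with replicates 1 and 2. Of 17 tested, 11 fell and 4 rose with replicates 1 and 2, where 22.8% and 23.5% of all genes did. Below all 3 BEAF-32 RNAi libraries lay 3, beside 10.8% of all genes. The small heat shock protein gene Hsp23 had 49.99, 55.6 and 49.1 CPM in BEAF-32 RNAi Dref RNAi cells, against 253, 246 and 29.7 CPM in BEAF-32 RNAi cells, a change of −2.28 ± 0.06 (log2, SE, adjusted p = 1.2e-38, edgeR) and −1.77 ± 0.69 with all 3 (adjusted p = 0.34). Hsp26 and Hsp27 were lower too, with changes of −1.28 ± 0.06 and −1.12 ± 0.05 (SE). Hsp70Bb, one of several near-identical inducible Hsp70 copies among which reads cannot be assigned with certainty, had 3.56, 2.24 and 1.68 CPM in BEAF-32 RNAi Dref RNAi cells, against 31.3, 33.9 and 3.43 CPM in BEAF-32 RNAi cells. The library labelled BEAF-32 RNAi replicate 3 lay within the double-knockdown range for Hsp70Bb and below it for Hsp23, Hsp26 and Hsp27. Among those higher, Hsc70-5, the mitochondrial Hsp70, had 1079.9, 1131 and 1130.3 CPM in BEAF-32 RNAi Dref RNAi cells, against 562, 543 and 1468 CPM in BEAF-32 RNAi cells. Hsp60, the mitochondrial chaperonin, had 1217, 1169.9 and 1175 CPM in BEAF-32 RNAi Dref RNAi cells, against 645, 666 and 1637 CPM in BEAF-32 RNAi cells. They rose by 1.01 ± 0.04 and 0.86 ± 0.04 with replicates 1 and 2 (SE).

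Detoxification genes and transporters were more often higher than lower with replicates 1 and 2, where 23.5% of all genes were higher and 22.8% lower. The library labelled BEAF-32 RNAi replicate 3 lay above every BEAF-32 RNAi Dref RNAi library for 13 of the 16 glutathione S-transferases that rose, 3 of 6 UDP-glycosyltransferases, 14 of 20 cytochrome P450 genes and 10 of 14 transporters. Glutathione S-transferases counted 16 higher and 4 lower of 28 (median 0.49), UDP-glycosyltransferases 6 and 0 of 14 (median 0.89), cytochrome P450 genes 20 and 9 of 53 (median 0.32), and efflux and solute transporters 14 and 1 of 19 (median 0.73). No member of these lists passed with all 3 libraries. Their medians were then 0.22, 0.18, −0.26 and 0.15 in the same order, so that of the P450 genes changed sign. Above all 3 BEAF-32 RNAi libraries there were 2 of 29 (6.9%), 2 of 15 (13.3%), 3 of 55 (5.45%) and 2 of 19 (10.5%) members, beside 11.8% of all genes. Below all 3 there were 2 (6.9%), 1 (6.67%), 7 (12.7%) and 0, beside 10.8% of all genes. Of the transferases, GstD1 had 291, 305 and 309.7 CPM in BEAF-32 RNAi Dref RNAi cells, against 47.9, 47.8 and 537 CPM in BEAF-32 RNAi cells, a rise of 2.66 ± 0.06 with replicates 1 and 2 (SE, adjusted p = 5.9e-42, edgeR) and 0.52 ± 0.92 with all 3 (adjusted p = 0.86). GstD9 and GstE9 rose by 1.98 ± 0.09 and 1.91 ± 0.09, and GstS1 fell by 1.53 ± 0.04 (SE). Ugt86Da had 217, 226 and 228 CPM in BEAF-32 RNAi Dref RNAi cells, against 31.9, 35.6 and 355 CPM in BEAF-32 RNAi cells, a rise of 2.72 ± 0.07 (SE, adjusted p = 3.5e-40, edgeR). Ugt86Dd kept its order against all 3 libraries, with 24.3, 24.2 and 20.05 CPM in BEAF-32 RNAi Dref RNAi cells, against 1.48, 1.57 and 5.29 CPM in BEAF-32 RNAi cells, and rose by 3.89 ± 0.23 (SE). MFS3, a carrier of the major facilitator superfamily, had 1359.8, 1415 and 1432 CPM in BEAF-32 RNAi Dref RNAi cells, against 361, 393 and 1543 CPM in BEAF-32 RNAi cells, and rose by 1.89 ± 0.05 (SE). The multidrug resistance protein gene Mrp4 had 545, 550.2 and 591 CPM in BEAF-32 RNAi Dref RNAi cells, against 241, 223 and 741 CPM in BEAF-32 RNAi cells, and rose by 1.28 ± 0.05 (SE). In both carriers the library labelled BEAF-32 RNAi replicate 3 was the highest of the 6. Cyp28d1, a P450, had 112, 117 and 121 CPM in BEAF-32 RNAi Dref RNAi cells, against 18.96, 17.8 and 171 CPM in BEAF-32 RNAi cells. Another P450, Cyp318a1, fell, with 0.203, 0 and 0.112 CPM in BEAF-32 RNAi Dref RNAi cells, against 3.50, 4.12 and 0.572 CPM in BEAF-32 RNAi cells. The antioxidant genes around cnc and Keap1 counted 11 higher and 1 lower of 16, with 4 (25%) above and 1 (6.25%) below all 3 libraries.

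Immune, RNA interference and surface genes changed in both directions. Of 33 Toll, Imd and antimicrobial genes, 7 (21.2%) were higher and 10 (30.3%) lower with replicates 1 and 2, where 23.5% and 22.8% of all genes were. Below all 3 BEAF-32 RNAi libraries lay 6 (18.2%), beside 10.8% of all genes. Rel, the NF-kappaB factor of the Imd pathway, had 179.6, 184 and 194 CPM in BEAF-32 RNAi Dref RNAi cells, against 249.4, 248 and 256 CPM in BEAF-32 RNAi cells, a change of −0.42 ± 0.05 (SE, adjusted p = 3.6e-10, edgeR). key, of the kinase complex above it, had 195, 182 and 184 CPM in BEAF-32 RNAi Dref RNAi cells, against 247, 257 and 196 CPM in BEAF-32 RNAi cells. Both lay below all 3 BEAF-32 RNAi libraries. In the RNA interference machinery 4 (23.5%) were higher and 6 (35.3%) lower of 17, so the share higher was that of all genes. AGO2, the Argonaute that carries small interfering RNA, had 599, 645 and 667 CPM in BEAF-32 RNAi Dref RNAi cells, against 934, 913 and 969 CPM in BEAF-32 RNAi cells, a change of −0.54 ± 0.04 (SE, adjusted p = 1.4e-16, edgeR). vig, a component of the same complex, had 206, 198 and 202 CPM in BEAF-32 RNAi Dref RNAi cells, against 381, 398 and 242.4 CPM in BEAF-32 RNAi cells. In neither gene did the groups overlap. Dcr-2, which cuts dsRNA, had 307, 306 and 326 CPM in BEAF-32 RNAi Dref RNAi cells, against 270.1, 248 and 549 CPM in BEAF-32 RNAi cells, with a change of 0.27 ± 0.05 with replicates 1 and 2 and −0.19 ± 0.30 with all 3 (SE). The amounts of dsRNA delivered to the 2 groups cannot be compared from these files. Matrix and adhesion genes counted 7 higher (26.9%) and 15 lower (57.7%) of 26. mew, an integrin alpha chain, had 14.3, 13.8 and 12.8 CPM in BEAF-32 RNAi Dref RNAi cells, against 61.7, 70.3 and 16.01 CPM in BEAF-32 RNAi cells, a change of −2.27 ± 0.11 with replicates 1 and 2 (SE). The matrix protein gene Ppn had 544, 579.9 and 595 CPM in BEAF-32 RNAi Dref RNAi cells, against 1563, 1612 and 52.02 CPM in BEAF-32 RNAi cells, a change of −1.47 ± 0.04 (SE). For Ppn the library labelled BEAF-32 RNAi replicate 3 was far below the other 5. Dl, the Notch ligand, had 12.2, 11.6 and 11.4 CPM in BEAF-32 RNAi Dref RNAi cells, against 22.9, 23.02 and 23.9 CPM in BEAF-32 RNAi cells, with −0.97 ± 0.15 (SE, adjusted p = 1.1e-07, edgeR) and −0.99 ± 0.13 with all 3 (adjusted p = 0.069). ph-p, a Polycomb subunit, had 174, 182 and 176 CPM in BEAF-32 RNAi Dref RNAi cells, against 118, 119 and 147 CPM in BEAF-32 RNAi cells. Of the ecdysone list, ImpL2, an insulin-binding protein, and ImpL3, lactate dehydrogenase, rose by 1.36 ± 0.04 and 1.46 ± 0.04 (SE), the first above all 3 libraries.

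Marker genes of brain and other cell types changed in both directions with replicates 1 and 2, where 23.5% of all genes were higher and 22.8% lower. Glia markers counted 6 higher and 4 lower of 11, with Gs2, glutamine synthetase, at 50.6, 47.6 and 52.2 CPM in BEAF-32 RNAi Dref RNAi cells, against 4.77, 6.57 and 44.3 CPM in BEAF-32 RNAi cells. Neuron markers counted 9 higher and 1 lower of 16, hemocyte markers 3 and 6 of 11, and muscle markers 4 and 5 of 15. The shares higher among hemocyte (27.3%) and muscle (26.7%) markers were near that of all genes. eater, a phagocytic receptor of hemocytes, had 2.03, 2.49 and 2.80 CPM in BEAF-32 RNAi Dref RNAi cells, against 25.7, 22.2 and 0.143 CPM in BEAF-32 RNAi cells. Glia markers summed to 1584, 1618 and 1651 CPM in BEAF-32 RNAi Dref RNAi, against 1483 and 1559 CPM in BEAF-32 RNAi replicates 1 and 2 and 1388 CPM in the library labelled BEAF-32 RNAi replicate 3. Hemocyte markers summed to 1268, 1264 and 1282 CPM in BEAF-32 RNAi Dref RNAi, against 1401 and 1401 CPM in BEAF-32 RNAi replicates 1 and 2 and 1374 CPM in the library labelled BEAF-32 RNAi replicate 3. Their part in the other results was not tested.

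A further 12 genes, 6 each way, were picked by size of change with replicates 1 and 2, which favours genes near 0. They were taken among genes called with replicates 1 and 2 but not with all 3 libraries. The library labelled BEAF-32 RNAi replicate 3 also had to lie within or past the double knockdown. BigH1, an embryonic and germline linker histone, had 5.69, 3.98 and 2.13 CPM in BEAF-32 RNAi Dref RNAi cells, against 0.106, 0 and 2.29 CPM in BEAF-32 RNAi cells. skpE, one of several similar copies of a ubiquitin ligase subunit gene, had 1.22, 2.49 and 2.80 CPM in BEAF-32 RNAi Dref RNAi cells, against 0, 0 and 3.43 CPM in BEAF-32 RNAi cells, and reads of such copies may be split. In both, replicates 1 and 2 were at or near 0. CG14218 had 3.15, 5.97 and 6.94 CPM in BEAF-32 RNAi Dref RNAi cells, against 0, 0.0980 and 3.72 CPM in BEAF-32 RNAi cells. CG10405 had 3.76, 2.86 and 5.71 CPM in BEAF-32 RNAi Dref RNAi cells, against 0, 0.196 and 3.29 CPM in BEAF-32 RNAi cells. CG17801 had 2.74, 1.49 and 2.13 CPM in BEAF-32 RNAi Dref RNAi cells, against 0, 0 and 1.72 CPM in BEAF-32 RNAi cells. In these 3 genes the library labelled BEAF-32 RNAi replicate 3 lay within the range of the double knockdown. CG4259 had 1.12, 1.62 and 1.12 CPM in BEAF-32 RNAi Dref RNAi cells, against 0, 0 and 1.72 CPM in BEAF-32 RNAi cells. skpE, CG17801 and CG4259 had no count in replicates 1 and 2, and against a floor of 3 counts over these 2 libraries they were at least 14.2, 13.9 and 8.41 times as high in the double knockdown. Those lower were Hsp70Bb, eater, CG7255, CG1273, Smvt and Cyp12d1-d. CG7255 had 0.203, 0.249 and 0 CPM in BEAF-32 RNAi Dref RNAi cells, against 4.55, 2.55 and 0 CPM in BEAF-32 RNAi cells. CG1273 had 0.813, 1.24 and 1.68 CPM in BEAF-32 RNAi Dref RNAi cells, against 15.04, 13.03 and 0.429 CPM in BEAF-32 RNAi cells. The vitamin transporter gene Smvt had 0, 0.124 and 0.112 CPM in BEAF-32 RNAi Dref RNAi cells, against 1.27, 0.980 and 0 CPM in BEAF-32 RNAi cells. In these 3 genes the library labelled BEAF-32 RNAi replicate 3 was no higher than the highest double-knockdown library. Cyp12d1-d had 0.102, 0.249 and 0.224 CPM in BEAF-32 RNAi Dref RNAi cells, against 2.12, 1.96 and 0.143 CPM in BEAF-32 RNAi cells. By that choice none of these 12 genes passed with all 3 libraries (adjusted p, edgeR, 0.3 for Cyp12d1-d and 0.8 for skpE).

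Genes near domain borders that differed between the knockdowns had medians near 0. The TAD lists, called by the authors on merged Hi-C replicates, hold 1417 borders in BEAF-32 RNAi Dref RNAi and 2557 in BEAF-32 RNAi. Of the BEAF-32 RNAi borders, 1725 have no partner within 2 kb in the BEAF-32 RNAi Dref RNAi list. Of the BEAF-32 RNAi Dref RNAi borders, 585 have none in the BEAF-32 RNAi list. The lists carry no replicate error. Per the study, fewer Hi-C read pairs were used for BEAF-32 RNAi Dref RNAi than for BEAF-32 RNAi. The part of this depth in the lists was not tested. Of the genes that start within 2 kb of a border of BEAF-32 RNAi Dref RNAi only, 23.4% were higher and 18.7% lower with replicates 1 and 2 (107 genes). Near borders of BEAF-32 RNAi only, 27.2% were higher and 24.1% lower with replicates 1 and 2 (1777 genes). At borders found in both lists the shares were 26.2% and 26.8% (820 genes), and away from borders 22.2% and 22% (6945 genes). Non-overlap with all 3 BEAF-32 RNAi libraries was 11.7% above and 11.7% below at borders of BEAF-32 RNAi Dref RNAi only, and 12.9% above and 10.9% below at borders of BEAF-32 RNAi only, beside 11.8% and 10.8% over all genes. Median log2 fold changes with all 3 libraries were −0.05 at borders of BEAF-32 RNAi Dref RNAi only, 0.00 at those of BEAF-32 RNAi only, −0.02 at those of both and −0.04 away from borders. By chromosome, genes of the small chromosome 4 lay below all 3 libraries in 18 of 93 cases (19.4%), beside 9.11 to 12.8% on the arms of the other chromosomes.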

How the data were processed

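RNA of BG3 cells was sequenced after poly(A) selection. Per the labels and the study's methods, the HTSeq counts per gene deposited by the authors came from reads trimmed by Trimmomatic 0.39 and mapped on dm6 by TopHat2 2.1.2 over Bowtie2 2.3.4.1, with duplicates taken out by Picard. They were not normalised. The sources used here do not say whether counting matched the strand of the kit, and genes that overlap on opposite strands are uncertain. Lines that name no gene were left out; they held reads at no feature (39.4 to 41.9%), ambiguous reads (0.486 to 0.542%) and reads without a unique alignment (21.0 to 29.5%), and reads of near-identical genes can fall in the last class.

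Genes with at least 10 counts over the libraries of a fit were scaled by TMM and tested with the quasi-likelihood F test of edgeR 4.0.16 (R 4.3.3), BEAF-32 RNAi Dref RNAi over BEAF-32 RNAi, with Benjamini-Hochberg adjustment and a threshold of 0.05. One fit held all 3 BEAF-32 RNAi libraries and the other replicates 1 and 2. Standard errors are approximate: the size of each log2 change was divided by the root of its F. The code was tested on simulated data with known changes. There the fit with all 3 libraries recovered 43% of changes of 1 on the log2 scale. The fit with replicates 1 and 2 recovered 95% of them. A gene that did not pass with all 3 libraries may therefore still have changed. CPM are scaled by TMM and compare libraries, not genes. Alternatives were DESeq2 1.42.0, limma 3.58.1 voom with quality weights, other scalings, filters, samples and fold thresholds.

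Of 16727 gene symbols 12512 were current in the Release 6 (dm6) RefSeq annotation, 4010 matched a synonym and 205 did not match. Promoter windows (250 bases before to 50 after the start) came from that genome. TAD starts and ends were used as deposited by the authors. The 42 gene lists (1161 of 1169 members found) hold genes of textbook function. Members, lists and the rule for named genes were chosen with earlier results of these data known. The rule took the 4 RNAi targets, all known Dref targets and genes called in both fits without overlap (up to 12 each way). It also took up to 3 genes of smallest p each way per list, and only part of these is named. Last, it took the 6 largest changes each way called with replicates 1 and 2 but not with all 3. For these the library labelled BEAF-32 RNAi replicate 3 had to lie within or past the double knockdown. Genes named after values were seen are said to be so.

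No 2 libraries differed by less than counting noise.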

Additional observations from a re-analysis of the deposited data

How the results depend on the processing

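With all 3 BEAF-32 RNAi libraries the 4 calls became 392 with DESeq2 (992 genes without an adjusted p), 247 with the Cp190 RNAi Chro RNAi libraries in the fit, 4128 with limma voom sample quality weights, 17 with every gene that had a count, 2 without TMM scaling, and 2 at a log2 fold change of at least 2. With a replicate block 1 remained (CG10440). Deviations from the group mean correlated at 0.00032 to 0.0091 across genes between libraries of the same number. Not every library correlated best with its own number. The BEAF-32 RNAi mean includes the library labelled replicate 3, which dominates these deviations, so the check cannot decide whether the numbers pair libraries. Leaving out 1 library at a time gave 1 to 4494 calls, with 4494 without the library labelled BEAF-32 RNAi replicate 3 and 1 without any other. With replicates 1 and 2 the 4494 calls ranged from 3572 to 4291 on leaving out 1 library, were 4019 with a replicate block and 3672 with DESeq2, and fell to 972 and 387 at log2 fold changes of at least 1 and 2. Without TMM scaling 44.2% of 4606 calls were higher, against 50.8%, and the median of all genes was −0.05. The median of genes with a DRE stayed between −0.01 and −0.03 under the 3 alternatives.

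Of the 132 genes named, 9 had the same verdict under every edgeR alternative with all 3 libraries and 120 with replicates 1 and 2. The log2 fold changes of 9 genes changed sign, past the threshold, without the library labelled BEAF-32 RNAi replicate 3. Over the libraries left out in turn, the values that turned negative without it ranged as follows: Dref (−0.16 to 0.18), DNApol-alpha73 (−0.35 to 0.45), E2f (−0.17 to 0.16) and mor (−0.14 to 0.21). Those that turned positive without it were RpS27 (−0.23 to 0.28), RpL41 (−0.29 to 0.32), eIF-4B (−0.28 to 0.33), eIF6 (−0.38 to 0.14) and Dcr-2 (−0.39 to 0.27), and each value without that library is the end of its range with that sign.

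Limits are few replicates, RNA changes of the targets that are small, and 1 library whose target levels go against its label, so results with replicates 1 and 2 rest on 5 libraries. A batch shared by replicates cannot be told apart from the knockdown. Protein levels were not analysed here.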

Other observations

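Counts for further gene groups are with replicates 1 and 2, where 23.5% of all genes were higher and 22.8% lower (edgeR). Respiratory chain genes counted 6 higher and 5 lower of 26, with Cyt-c-p, cytochrome c, at 185, 166 and 175 CPM in BEAF-32 RNAi Dref RNAi cells, against 107, 112 and 193 CPM in BEAF-32 RNAi cells. SdhA, of succinate dehydrogenase, had 183, 187 and 184 CPM in BEAF-32 RNAi Dref RNAi cells, against 241, 268 and 171 CPM in BEAF-32 RNAi cells. Proteasome genes counted 3 higher and 6 lower of 31. In 4 proteasome genes (12.9%, beside 11.8% of all genes) the double-knockdown libraries lay above all 3 BEAF-32 RNAi libraries, the base subunit Rpn1 included, with 484, 474 and 512 CPM in BEAF-32 RNAi Dref RNAi cells, against 421, 426 and 471 CPM in BEAF-32 RNAi cells. The vacuolar ATPase counted 5 higher and 9 lower of 22, Mediator 6 higher and 2 lower of 24 and mitochondrial DNA maintenance and translation 2 higher and 6 lower of 22. Mediator had 4 members (16.7%) above all 3 libraries and 1 (4.17%) below, beside 11.8% and 10.8% of all genes.

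Signalling and chromatin lists had members in both directions. Notch genes counted 9 higher and 3 lower of 18, Hippo genes 4 higher and 3 lower of 15, Polycomb genes 3 higher and 7 lower of 18, JNK pathway genes 4 higher and 5 lower of 21, JAK/STAT genes 3 higher and 1 lower of 10 and ecdysone response genes 7 higher and 1 lower of 20. Apoptosis and DNA damage genes counted 7 higher and 5 lower of 21, among them Xrp1, a bZIP factor of the DNA damage response, with 2144, 2326 and 2307 CPM in BEAF-32 RNAi Dref RNAi cells, against 1537, 1549.6 and 3044 CPM in BEAF-32 RNAi cells. Gadd45, a stress-induced gene, had 112, 108 and 115 CPM in BEAF-32 RNAi Dref RNAi cells, against 144, 149 and 404 CPM in BEAF-32 RNAi cells, below all 3 BEAF-32 RNAi libraries. Its level in the library labelled BEAF-32 RNAi replicate 3 was the highest of the 6. Neuroblast markers counted 1 higher and 2 lower of 12, germline markers 3 higher and 2 lower of 10 and markers of fat body, gut and cuticle 2 higher and 1 lower of 9. Histone genes counted 3 higher and 2 lower of 5 and imaginal disc growth factors 0 higher and 0 lower of 4.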
